A study of Mus musculus with 8 samples.

Results

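The Hox genes encode homeodomain transcription factors, and all 39 of them were found by symbol among the 25239 genes counted in kidney RNA of mice after ischemia-reperfusion. They lie in 4 clusters on different chromosomes: 11 genes in HoxA on chromosome 6, 10 in HoxB on chromosome 11, 9 in HoxC on chromosome 15 and 9 in HoxD on chromosome 2. Of the 39 genes, 31 had enough counts to be tested, 5 had no count in any library and 3 had a few counts but too few for a test.

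The study asked what the transcription factor FoxO1 does in macrophages during ischemia-reperfusion injury. It has 4 kidney libraries labelled as myeloid FoxO1 knockouts (knockout 1 to 4) and 4 labelled wild type (control 1 to 4), all after ischemia-reperfusion. Per the labels' protocols, the knockout came from Lyz2-CreERT2 FoxO1 flox/flox mice that were 8 to 10 weeks old and received tamoxifen at 75 mg per kg on 5 days. Surgery took out the right kidney and stopped the blood flow of the left one with a clamp for 35 minutes. The protocols also give pentobarbital at 60 mg per kg. The same protocol text stands with all 8 samples, and neither the Cre status of the controls nor a separate statement on their tamoxifen is given in the sources used here. The time between reperfusion and collection is not given either. Lyz2 drives Cre in myeloid cells, which include macrophages and neutrophils, so the libraries, made from collagenase-digested kidney, hold mostly RNA of cells in which no deletion was intended. No label says that the libraries of a group came from separate animals, so the p-values reflect how far these libraries spread, part of which may be technical.

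Within each Hox cluster the genes lie in the order of their paralog numbers, and genes with the same number in different clusters are paralogs that arose when an ancestral cluster was duplicated. Low-numbered genes are switched on earlier and nearer the head of the embryo, and high-numbered genes later and nearer the tail, so that each body level carries its own combination. Hox proteins bind DNA together with cofactors of the Pbx and Meis families. In the mouse kidney the genes of paralog group 11 act with Eya1 and Six2 in the mesenchyme from which nephrons form, those of group 10 are needed in the stroma, and the Hoxb7 promoter is active in the ureteric bud and the collecting duct that grows from it. Adult tissues keep much of the Hox pattern of the body level at which they formed.

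The promoters of 4 genes are printed because the results turn on them. Hoxd8, Hoxd9 and Hoxd10 stood higher in the knockout libraries under every setting tried. Hoxb8 is the paralog of Hoxd8 whose mean was lower in knockout, with groups that overlapped and no call (edgeR adjusted p = 0.0855). Each runs from 250 bases before the annotated start to 50 bases after it, on the plus strand, from RefSeq on the build GRCm38.p6. Hoxd8 is at chr2:74704365-74704664, Hoxd9 at chr2:74697513-74697812, Hoxd10 at chr2:74691641-74691940 and Hoxb8 at chr11:96281655-96281954. Capitals mark matches, on either strand, to any of 6 short motifs: GTAAACA (the forkhead motif that FoxO factors bind), TGATNNAT (Hox with Pbx), TAATTA (homeodomain), TTTATNG (posterior Hox and caudal factors), TATAAA (the TATA box) and CCAAT (the CCAAT box, a motif added after the sequences had been read).
Hoxd8: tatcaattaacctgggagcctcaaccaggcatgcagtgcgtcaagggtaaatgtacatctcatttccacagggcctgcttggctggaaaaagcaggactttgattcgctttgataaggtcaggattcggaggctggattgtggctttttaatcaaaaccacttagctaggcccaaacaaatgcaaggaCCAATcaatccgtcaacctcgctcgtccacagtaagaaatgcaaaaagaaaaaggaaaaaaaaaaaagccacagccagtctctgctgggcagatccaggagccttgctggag
Hoxd9: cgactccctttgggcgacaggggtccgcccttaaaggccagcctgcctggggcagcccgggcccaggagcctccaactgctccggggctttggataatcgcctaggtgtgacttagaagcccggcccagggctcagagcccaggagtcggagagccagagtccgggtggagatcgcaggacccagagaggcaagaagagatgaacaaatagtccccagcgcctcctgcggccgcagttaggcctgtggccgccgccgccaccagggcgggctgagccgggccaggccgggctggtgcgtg
Hoxd10: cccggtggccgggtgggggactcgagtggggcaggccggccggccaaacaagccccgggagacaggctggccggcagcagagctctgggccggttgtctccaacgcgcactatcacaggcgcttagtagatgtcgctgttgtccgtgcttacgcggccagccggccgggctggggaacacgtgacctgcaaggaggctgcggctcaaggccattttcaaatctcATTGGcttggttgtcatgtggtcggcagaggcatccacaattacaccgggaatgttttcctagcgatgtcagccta
Hoxb8: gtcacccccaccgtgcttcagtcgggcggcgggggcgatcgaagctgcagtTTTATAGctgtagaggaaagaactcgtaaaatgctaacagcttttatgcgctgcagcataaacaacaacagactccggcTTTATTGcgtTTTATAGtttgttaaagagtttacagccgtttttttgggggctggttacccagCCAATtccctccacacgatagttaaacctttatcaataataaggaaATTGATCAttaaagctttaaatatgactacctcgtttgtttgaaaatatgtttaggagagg

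Hoxd8 and Hoxd10 each held 1 match, a CCAAT box, and Hoxd9 held none of the 6 motifs in this window. The Hoxb8 window held 1 TGATNNAT, 3 TTTATNG, 2 TATAAA and 1 CCAAT match, and both TATAAA matches, on the minus strand, lay wholly inside a TTTATNG match. Such matches also occur in HoxD windows not printed here. Hoxd4 held 3 TTTATNG, 1 TATAAA and 2 CCAAT matches, and Hoxd3 held 1 CCAAT match. Each Hoxd11 window held 1 TAATTA match, and the later one also held 1 TGATNNAT match. Of 32851 mouse promoters of the same length, CCAAT was in 37.4%, TATAAA in 13.6%, TTTATNG in 10.9%, TGATNNAT in 8.85%, TAATTA in 5.29% and GTAAACA in 3.65%. GTAAACA was in 0 of the 24 promoters available for 22 of the Hox genes. A match is a description of the letters and not a bound site, and a window without a match says nothing of a factor's binding elsewhere.

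The libraries held 29044405 to 35530421 counts, of which 25554 to 32655 (0.0783% to 0.101%) fell on Hox genes. Levels are CPM (counts scaled to library size, with TMM factors), and levels of different genes are compared per kilobase of the deposited gene length (RPKM). Across the tissue, edgeR's quasi-likelihood test called 1909 of 15000 genes changed at a Benjamini-Hochberg adjusted p under 0.05. Foxo1 itself stood at 41.4, 41.0, 42.9 and 39.3 CPM in the knockout libraries, against 34.5, 33.4, 33.0 and 33.9 CPM in the control libraries, which in whole tissue does not check the deletion in myeloid cells. Lyz2 had 13 counts in knockout 3 and 81 in control 1, against 844 to 1610 in the other 6 libraries, and results are also given without these 2 libraries where that changes a call.

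The Hox genes of this injured kidney were led by the middle and posterior part of the clusters. Per length, the highest mean level over all 8 libraries was that of Hoxb6 (54.9 RPKM), followed by Hoxd8 (48.5), Hoxb8 (38.0), Hoxd9 (35.5), Hoxb7 (34.4), Hoxb9 (27.6), Hoxa10 (23.9), Hoxc10 (17.0), Hoxa7 (16.9) and Hoxa9 (16.8 RPKM). Neighbours in this order overlapped in their ranges over the libraries, so their order is not firm. The exception is the step below Hoxa9, whose lowest library stood at 15.4 RPKM, against 11.0 RPKM in the highest library of the next gene, Hoxb3. Hoxd10 was not separated from the upper genes in this way, since it reached 14.0 RPKM in its highest library and Hoxc10 had 12.3 RPKM in its lowest.

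Below that step 14 genes had mean levels between 2.88 and 9.15 RPKM, among them Hoxb3, Hoxb4, Hoxb5, Hoxc6, Hoxa5 and Hoxd4. Another 7 genes had 0.720 to 2.03 RPKM, and these include the group 11 genes Hoxa11, Hoxd11 and Hoxc11, the genes that act in the embryonic kidney mesenchyme. Groups 12 and 13, which pattern the most posterior structures such as digits and genital tubercle, held 6 genes, of which 5 (Hoxa13, Hoxb13, Hoxc12, Hoxc13 and Hoxd13) had 0 counts in all 8 libraries. A count of 0 allows a level of up to 0.0844 to 0.103 CPM per library, for counting error only. This floor uses library totals without TMM factors and takes the counts as independent. It would be higher if each read of a pair was counted on its own. Hoxd12 had 0 counts in every knockout library, and 2, 0, 0 and 1 counts in the control libraries. At the other end, the hindbrain gene Hoxb1 had 4 counts in knockout 1 and 0 in the other 7 libraries. Hoxd1, known in mouse from sensory neurons, had 5, 2, 1 and 0 counts in the knockout libraries, against 10, 4, 10 and 4 in the control libraries, a level too low to test.

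**Figure D1:**
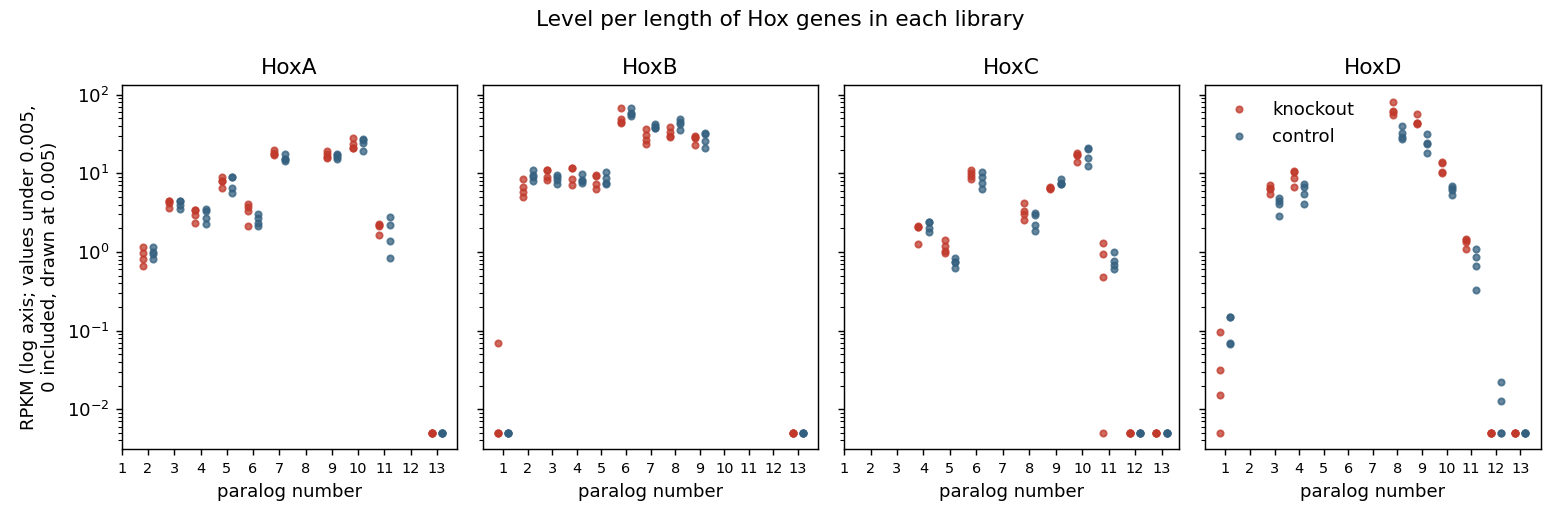
Level per length (RPKM, log axis) of 38 Hox genes by cluster and paralog number, 1 point per library, knockout to the left of control; values under 0.005, 0 included, are drawn at 0.005. The genes with the highest levels had paralog numbers 6 to 10, but some genes with these numbers, such as Hoxa6 and Hoxc8, stood lower. The genes of groups 12 and 13 lay at or near 0, and knockout and control points of Hoxd8, Hoxd9 and Hoxd10 did not overlap.

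Between the groups, 4 of the 31 tested Hox genes rose in the knockout libraries and 0 fell; DESeq2 called 6 higher and 0 lower, and limma voom 5 higher and 3 lower. All 4 edgeR calls lie in HoxD: Hoxd8, Hoxd10, Hoxd9 and Hoxd3. The called share of the Hox genes was 12.9%, and over all tested genes it was 12.7%, with 6.45% called higher and 6.28% called lower, so the Hox genes as a whole were called about as often as other genes. At an unadjusted p under 0.05 there were 10 Hox genes, and 4368 of the 15000 genes tested. Groups did not overlap for 8 Hox genes, 6 above and 2 below control, against 21.7% of all tested genes (11.1% above and 10.6% below). The median log2 fold change, knockout over control, was 0.05 for the Hox genes and -0.01 for all tested genes.

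By cluster the picture differed. Of the 6 HoxD genes tested, 4 rose and all 6 had positive log2 fold changes, between 0.64 and 1.01 with a median of 0.90. HoxA had 0 called of 10 tested with a median of 0.05, HoxB had 0 of 8 with a median of -0.13, and HoxC had 0 of 7 with a median of -0.06. At an unadjusted p under 0.05 HoxA held 0, HoxB 3 and HoxC 1 of these genes. DESeq2 called 0 HoxA, 0 HoxB and 1 HoxC gene, and limma voom called 0 HoxA, 3 HoxB (all lower) and 0 HoxC genes. Whether the clusters differ from each other was not tested.

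**Figure D2:**
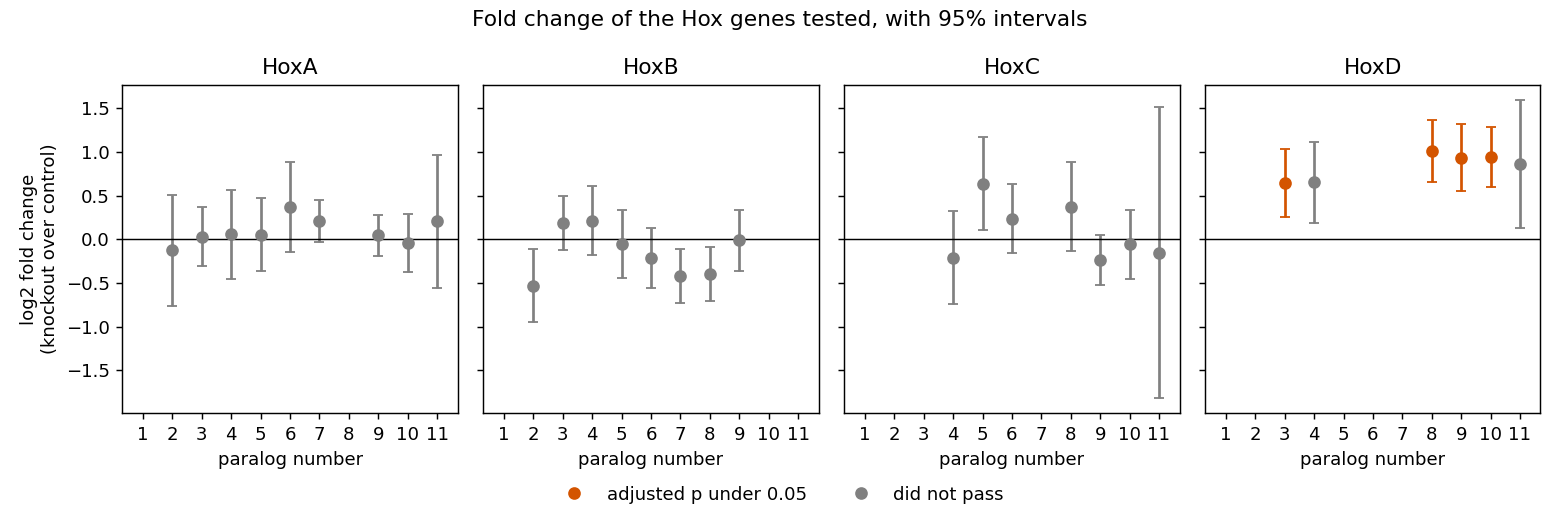
Log2 fold change (knockout over control) of 30 tested Hox genes by cluster and paralog number, with 95% intervals from edgeR; orange points passed the adjusted p of 0.05. The 6 HoxD points lie between 0.64 and 1.01, and HoxA, HoxB and HoxC points lie on both sides of 0.

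Per length, Hoxd8 had the highest mean of the Hox genes in knockout, at 64.8 RPKM. In control its mean of 32.2 RPKM lay below those of Hoxb6, Hoxb8 and Hoxb7. Hoxd8 had 176.8, 132.2, 120.4 and 129.9 CPM in the knockout libraries, against 58.5, 85.9, 70.3 and 63.4 CPM in the control libraries. Every knockout library lay above every control library. The means were 139.8 ± 25.1 CPM in knockout and 69.5 ± 11.9 CPM in control (SD, n = 4 each). This was a 2.01-fold rise (log2 fold change 1.01, SE 0.16, 95% interval 0.65 to 1.36, edgeR adjusted p = 0.00458).

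Hoxd9, which acts with its group 9 paralogs in trunk and limb patterning, had 119.5, 90.98, 88.4 and 92.6 CPM in the knockout libraries, against 37.9, 66.8, 49.3 and 50.6 CPM in the control libraries. The groups were again apart, and knockout 1 lay above the narrow range of the other knockout libraries. Its means were 97.9 ± 14.5 CPM in knockout and 51.2 ± 11.9 CPM in control (SD, n = 4 each), a 1.91-fold rise (log2 fold change 0.94, SE 0.17, edgeR adjusted p = 0.00889).

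Hoxd10 is known for its part in the identity of hindlimb motor neurons and, with its group 10 paralogs, in the kidney stroma of mouse embryos. It had 25.95, 19.2, 18.9 and 24.7 CPM in the knockout libraries, against 12.7, 12.1, 9.88 and 11.4 CPM in the control libraries. The lowest knockout value was well above the highest control value. The means of 22.2 ± 3.66 CPM in knockout and 11.5 ± 1.22 CPM in control (SD, n = 4 each) differed by 0.94 on the log2 scale (SE 0.16, edgeR adjusted p = 0.00524).

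Hoxd3, which shapes the first neck vertebrae in mouse, was the member just inside the threshold. It had 20.5, 18.8, 15.9 and 18.3 CPM in the knockout libraries, against 8.35, 14.0, 12.8 and 11.9 CPM in the control libraries. The groups did not overlap, and the difference was 0.64 on the log2 scale (SE 0.18, edgeR adjusted p = 0.0394). This call is fragile: with 1 library left out it held in 1 of 8 fits (without control 2), with an adjusted p of up to 0.0954, and without control 1 and knockout 3 together it was lost as well. Exons of Hoxd3 overlap those of Hoxd4 and Gm28230 on the same strand, and of the noncoding genes Haglr and Hoxd3os1 on the opposite strand. Since the library kit does not mark strand, reads there cannot be told apart.

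Hoxd4 was the member just outside the threshold, with 17.4, 27.6, 22.1 and 26.9 CPM in the knockout libraries, against 10.4, 16.9, 18.7 and 13.8 CPM in the control libraries. Knockout 1 lay below control 3, so the groups overlapped (log2 fold change 0.65, SE 0.21, edgeR adjusted p = 0.0671). Exons of Hoxd4 overlap those of Hoxd3, Gm28230 and Hoxd3os1, so part of its reads could belong to them. Hoxd11, a low-level gene, had 6.19, 4.63, 5.70 and 6.02 CPM in the knockout libraries, against 1.38, 3.66, 2.78 and 4.57 CPM in the control libraries. Its groups touched without overlapping, and its log2 fold change of 0.87 (SE 0.33) did not pass (edgeR adjusted p = 0.112). Hoxd10 and Hoxd11 each share exon sequence with the annotated transcript Gm28309, so part of their reads could belong to it.

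**Figure D3:**
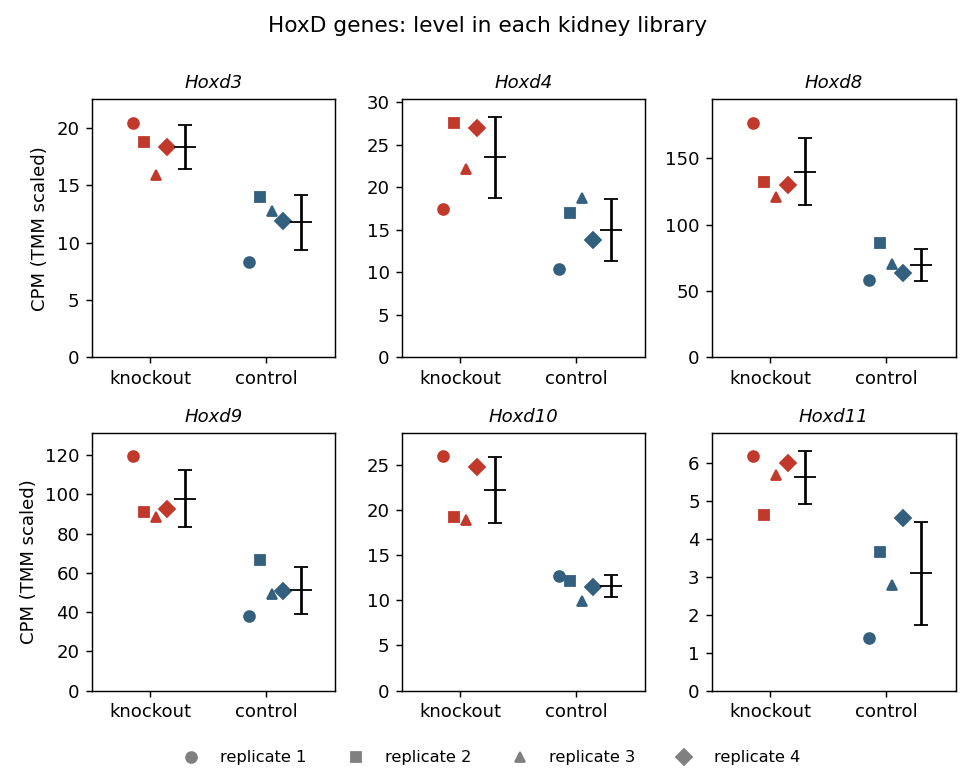
CPM of the 6 tested HoxD genes in each library, with mean and SD (n = 4) beside the points; knockout is left of control and the marker gives the replicate number. Knockout values lay above all control values for Hoxd3, Hoxd8, Hoxd9, Hoxd10 and Hoxd11, and overlapped for Hoxd4.

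HoxB held the most abundant Hox transcript of the control libraries, Hoxb6, and no HoxB gene passed the test. Hoxb6 had 95.6, 68.9, 61.3 and 63.1 CPM in the knockout libraries, against 79.7, 95.6, 83.8 and 75.3 CPM in the control libraries, with knockout 1 among the control values. Its log2 fold change was -0.21 (SE 0.15, edgeR adjusted p = 0.401).

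Hoxb8, known in mouse from myeloid progenitors and microglia, had 102.9, 79.8, 75.6 and 87.6 CPM in the knockout libraries, against 93.2, 131.1, 120.1 and 112.8 CPM in the control libraries. Only knockout 1 and control 1 crossed, and the log2 fold change was -0.40 (SE 0.14, edgeR adjusted p = 0.0855). Hoxb7 had 46.9, 39.1, 33.3 and 30.2 CPM in the knockout libraries, against 53.8, 48.4, 50.9 and 47.1 CPM in the control libraries. Here all knockout values were the lower ones, by a narrow margin, and the difference was -0.42 on the log2 scale (SE 0.14, edgeR adjusted p = 0.0778). Hoxb2, a hindbrain gene of group 2, had 13.8, 9.47, 8.18 and 10.9 CPM in the knockout libraries, against 14.8, 17.8, 15.7 and 12.9 CPM in the control libraries (log2 fold change -0.53, SE 0.19, edgeR adjusted p = 0.0894).

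Hoxb7, Hoxb8 and Hoxb2 did not pass in the test used here and passed as lower when knockout 1 was left out, with edgeR adjusted p of 0.0236, 0.0463 and 0.0370. Limma voom and the length and GC correction also called all 3 lower with every library kept, and Hoxb8 passed without control 1 as well (0.0386), so these calls depend on the tool and on the libraries used. The other 4 HoxB genes tested, Hoxb3, Hoxb4, Hoxb5 and Hoxb9, had log2 fold changes between -0.06 and 0.21, with group ranges that overlapped.

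**Figure D4:**
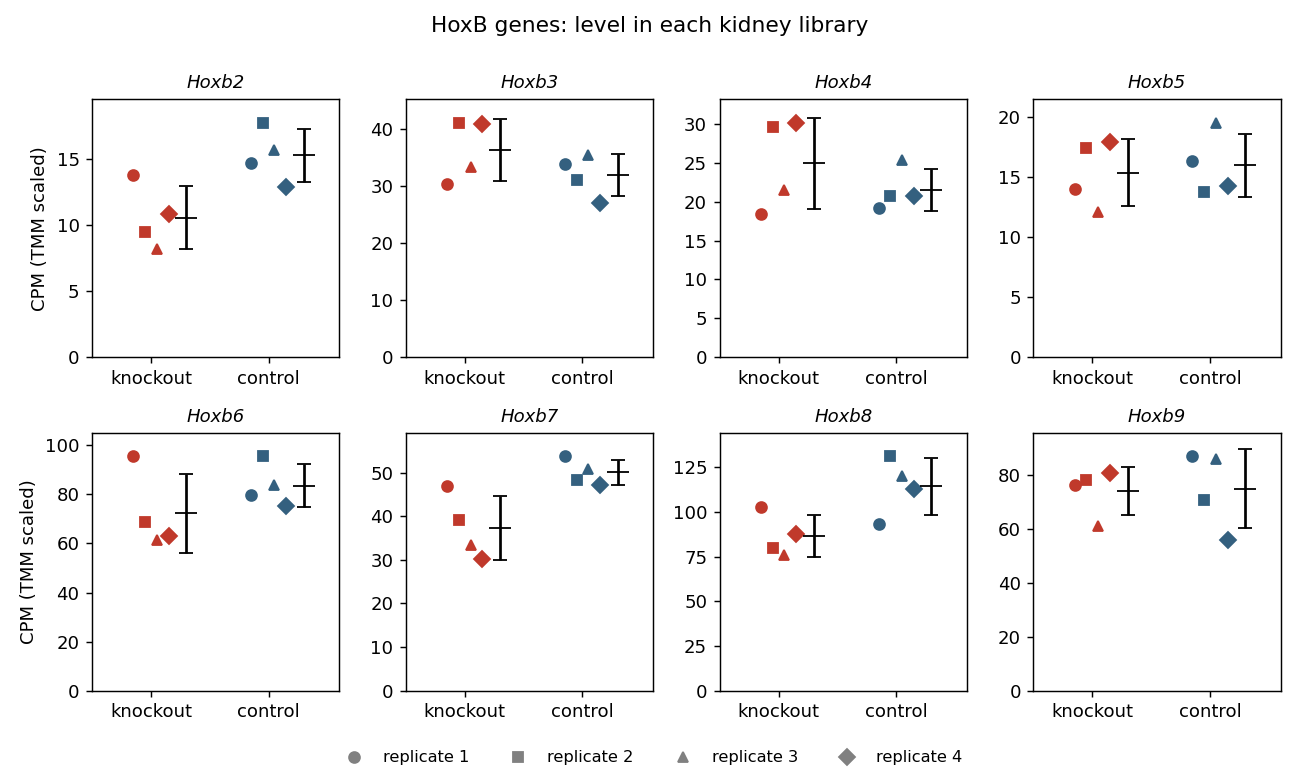
CPM of the 8 tested HoxB genes in each library, with mean and SD (n = 4) beside the points; knockout is left of control and the marker gives the replicate number. Hoxb7 is the gene whose groups do not overlap, and knockout 1 is the highest knockout library for Hoxb2, Hoxb6, Hoxb7 and Hoxb8.

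HoxA levels differed little between the groups. Hoxa10, the most abundant per length, had 89.2, 74.4, 65.7 and 66.5 CPM in the knockout libraries, against 59.6, 86.1, 75.5 and 84.1 CPM in the control libraries (log2 fold change -0.04, SE 0.15, edgeR adjusted p = 0.875). Hoxa9, like Hoxa10 a gene also active in blood progenitors, averaged 55.1 ± 5.10 CPM in knockout and 53.4 ± 3.30 CPM in control. Its log2 fold change was 0.05, with a 95% interval of -0.19 to 0.28. Hoxa7 averaged 35.4 ± 2.06 CPM in knockout and 30.5 ± 2.86 CPM in control (log2 fold change 0.21, SE 0.11, edgeR adjusted p = 0.227; SD, n = 4 each, for both genes). Hoxa2, Hoxa3, Hoxa4, Hoxa5, Hoxa6 and Hoxa11 had log2 fold changes from -0.13 (Hoxa2) to 0.37 (Hoxa6), and no HoxA gene had groups that did not overlap.

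HoxC was the least abundant cluster. Hoxc10, a hindlimb-level gene, had 33.1, 26.4, 33.0 and 34.7 CPM in the knockout libraries, against 23.5, 38.9, 29.5 and 40.5 CPM in the control libraries, with overlapping groups (log2 fold change -0.06, SE 0.18, edgeR adjusted p = 0.867). Hoxc6 averaged 15.5 ± 1.78 CPM in knockout and 13.2 ± 2.86 CPM in control (log2 fold change 0.24, SE 0.18, edgeR adjusted p = 0.414). Hoxc9, which sets the identity of thoracic motor neurons in mouse, varied little within the groups and did not overlap between them, at 11.2 ± 0.352 CPM in knockout and 13.2 ± 0.946 CPM in control, yet its log2 fold change of -0.24 (SE 0.13) did not pass (edgeR adjusted p = 0.250).

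Hoxc5 was the one HoxC gene with knockout values all above control, at 3.20, 2.66, 2.82 and 3.88 CPM in the knockout libraries, against 1.71, 2.28, 2.05 and 2.04 CPM in the control libraries (log2 fold change 0.64, SE 0.24, edgeR adjusted p = 0.108). Its annotated exons overlap those of the more abundant Hoxc10, which limits what its low counts can show. Hoxc11 had 0 counts in knockout 1, against 15 to 42 counts in each of the other 7 libraries. The remaining tested HoxC genes, Hoxc4 and Hoxc8, had log2 fold changes of -0.21 and 0.37.

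The balance between the clusters differed between the groups. HoxD genes made up 34.1%, 30.9%, 31.6% and 31.8% of the summed Hox RPKM in the knockout libraries, against 16.5%, 21.0%, 18.4% and 18.2% in the control libraries. The lowest knockout share was above the highest control share, and the means were 32.1% ± 1.39 in knockout and 18.6% ± 1.86 in control (SD, n = 4 each). HoxB took 40.0% ± 1.31 in knockout and 51.8% ± 3.57 in control. The shares of HoxA (18.6% ± 1.68 in knockout and 19.6% ± 1.51 in control) and HoxC (9.20% ± 1.01 and 9.99% ± 1.55, in the same order) lay within 1 SD of each other.

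Shares must sum to 100%, so the levels themselves are given too. The HoxD sum was 140.2 ± 19.4 RPKM in knockout and 73.6 ± 12.9 RPKM in control. Hoxd8 and Hoxd9 made up most of this sum in both groups, and most of its difference. Hoxd8 averaged 64.8 RPKM in knockout and 32.2 RPKM in control, and Hoxd9 46.6 and 24.4 RPKM in the same order. The HoxB sum was 174.6 ± 22.0 RPKM in knockout and 204.0 ± 15.0 RPKM in control. Its ranges overlapped, at 149.4 to 202.7 RPKM in knockout and 184.4 to 215.7 RPKM in control. All Hox genes together reached 435.3 ± 42.4 RPKM in knockout and 394.3 ± 29.4 RPKM in control (SD, n = 4 each), with ranges that overlapped.

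**Figure D5:**
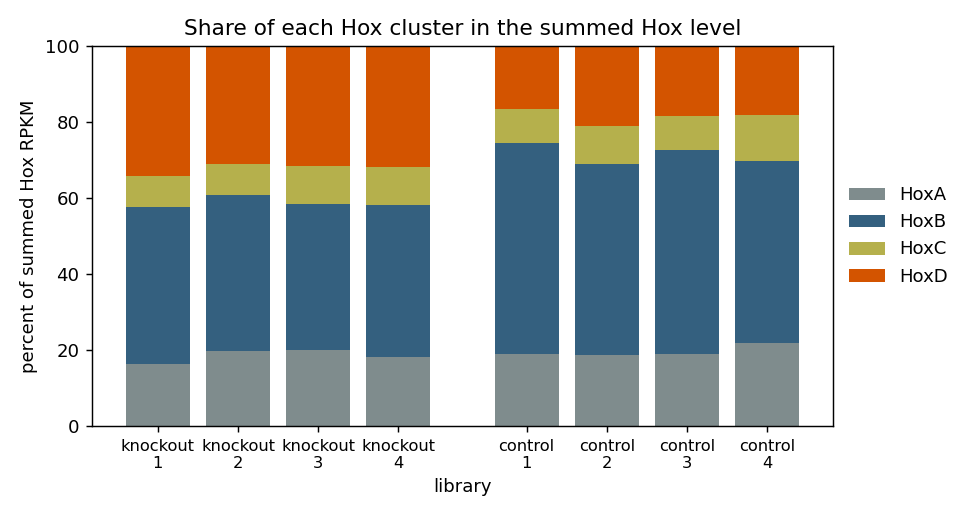
Share of each Hox cluster in the summed Hox RPKM of every library, in percent. HoxD takes 30.9% to 34.1% in the knockout libraries and 16.5% to 21.0% in the control libraries, and HoxB is the largest cluster in all 8 libraries.

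Ratios between paralogs within a library show the same contrast without any scaling between libraries. Per length, Hoxd8 stood at 2.11, 2.03, 1.95 and 1.82 times Hoxb8 in the knockout libraries, against 0.770, 0.803, 0.717 and 0.689 times in the control libraries. In each knockout library Hoxd8 was thus the more abundant of the pair, and in each control library Hoxb8 was. Hoxd9 stood at 2.01, 1.50, 1.86 and 1.48 times Hoxb9 in the knockout libraries, against 0.561, 1.22, 0.739 and 1.17 times in the control libraries. Hoxd4 over Hoxb4 gave 0.944, 0.933, 1.03 and 0.895 in knockout, against 0.542, 0.819, 0.738 and 0.667 in control. Hoxd3 over Hoxb3 gave 0.869, 0.587, 0.612 and 0.577 in knockout, against 0.317, 0.580, 0.463 and 0.564 in control, where knockout 4 lay just below control 2.

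The genes through which Hox proteins act or are controlled are set beside the 12.7% of all tested genes that edgeR called. Lists this short can hold 0 calls at such a share. Groups did not overlap for 22.2% of the cofactors and 12% of the chromatin regulators, against 21.7% of all tested genes. Of the 9 cofactors tested, 0 passed in edgeR, with 2 at an unadjusted p under 0.05, while DESeq2 called 2 and limma voom 1. Pknox2 had 10.5, 5.79, 6.12 and 8.54 CPM in the knockout libraries, against 3.32, 3.75, 4.77 and 5.41 CPM in the control libraries (log2 fold change 0.84, SE 0.26, edgeR adjusted p = 0.0558). Its groups did not overlap, and the groups overlapped for Meis1, Meis2, Meis3, Pbx2, Pbx3, Pbx4 and Pknox1. Of 25 Polycomb and Trithorax-type chromatin regulators, which keep Hox clusters silent or active, 0 passed in edgeR, with 3 at an unadjusted p under 0.05, and DESeq2 and limma voom called 2 each. The smallest p was that of Ezh2, the Polycomb methyltransferase, at 6.34 ± 1.00 CPM in knockout and 10.7 ± 3.02 CPM in control (log2 fold change -0.76, edgeR adjusted p = 0.0519).

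Retinoic acid and the caudal factors switch Hox genes on in the embryo, and 3 of 17 tested genes of these routes passed, 2 higher and 1 lower, a share of 17.6% against 12.7% of all tested genes. Rdh10, which makes retinaldehyde from retinol, had 52.7, 71.0, 72.2 and 66.3 CPM in the knockout libraries, against 139.4, 104.3, 140.9 and 117.7 CPM in the control libraries, and fell by 0.94 on the log2 scale (SE 0.14, edgeR adjusted p = 0.00370). Dhrs3, which turns retinaldehyde back into retinol, had 329.97, 233.8, 212.1 and 234.2 CPM in the knockout libraries, against 46.6, 163.1, 68.5 and 127.2 CPM in the control libraries (log2 fold change 1.32, SE 0.34, edgeR adjusted p = 0.0337). Rdh10 remained called with any library left out, whereas Dhrs3 was called in 3 of these 8 fits, with an adjusted p of up to 0.0899 (without control 3).

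Cdx4, a caudal factor, had 22, 46, 88 and 38 counts in the knockout libraries, against 0, 2, 12 and 0 in the control libraries. It was higher in every knockout library (edgeR adjusted p = 0.0239), though its log2 fold change of 3.76 (SE 0.90) rests on few counts, and without knockout 2, knockout 3 or knockout 4 the adjusted p was 0.0551, 0.0680 and 0.0567, and without control 1 and knockout 3 together it was 0.0761. The other caudal genes, Cdx1 and Cdx2, had 0 counts in all 8 libraries, and Cyp26a1 and Cyp26b1, which break down retinoic acid, did not pass. The retinoic acid receptor Rarb had 10.7 ± 1.94 CPM in knockout and 6.35 ± 1.80 CPM in control (log2 fold change 0.75, edgeR adjusted p = 0.0610; SD, n = 4 each).

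Among partners of Hox genes in kidney development, 1 of 13 tested rose (7.69%, against 6.45% called higher over all tested genes) and 0 fell. Lhx1, a homeodomain factor of the early nephron, had 12.3, 18.7, 26.7 and 23.5 CPM in the knockout libraries, against 5.90, 6.54, 11.3 and 8.52 CPM in the control libraries. The groups were close but did not overlap (log2 fold change 1.33, SE 0.27, edgeR adjusted p = 0.0129), and without control 1 and knockout 3 the adjusted p was 0.0557. Itga8, an integrin chain of the kidney mesenchyme, and Gata3, a factor of the ureteric bud and collecting duct, had log2 fold changes of 1.28 and 0.51 with edgeR adjusted p of 0.0502 and 0.0538.

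Of the noncoding genes inside the clusters, 10 of the 17 in the table were tested and 1 passed, a share of 10.0% against 12.7% of all tested genes. Hoxb5os had 33.8, 31.5, 19.8 and 24.9 CPM in the knockout libraries, against 11.6, 18.6, 14.1 and 15.0 CPM in the control libraries (log2 fold change 0.89, SE 0.20, edgeR adjusted p = 0.0189). It is annotated opposite to Hoxb5 and overlaps its exons, and Hoxb5 itself averaged 15.4 ± 2.77 CPM in knockout and 16.0 ± 2.62 CPM in control (SD, n = 4 each). Without strand, reads in the overlap cannot be assigned to one of them. Leaving out control 3 or knockout 2 ended the call, with adjusted p-values of 0.0549 and 0.0572. Haglr, which lies in HoxD, had 1.36 ± 0.827 CPM in knockout and 0.864 ± 0.672 CPM in control, with overlapping groups.

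The genes next to the clusters, chosen after values had been seen, were called about as often as other genes, at 10.0% against 12.7% of all tested genes. Of 20 tested neighbours 0 rose and 2 fell in edgeR and in DESeq2 alike, Skap2 and Snx10 in edgeR, both beside HoxA, and 5 had an unadjusted p under 0.05. Beside HoxD, the log2 fold changes of Lnpk, Atp5g3, Mtx2 and Hnrnpa3 were -0.48, 0.22, -0.10 and -0.10, and none passed. Evx1 and Evx2, the homeobox genes at the posterior ends of HoxA and HoxD, had 0 counts in all 8 libraries. Skap2 (log2 fold change -0.41, edgeR adjusted p = 0.0498) kept its call in 1 of 8 fits with a library left out, and Snx10 (-1.17, edgeR adjusted p = 0.0301) in 3 of 8. Without control 1 and knockout 3 neither was called, with adjusted p-values of 0.180 for Skap2 and 0.0603 for Snx10.

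The rise of HoxD genes came together with differences in markers of several kidney cell types. In bulk RNA, fewer cells of a type and less RNA per cell cannot be told apart. Over all tested genes edgeR called 6.45% higher and 6.28% lower, the shares beside which the counts for all cell types stand. Collecting duct principal cell genes rose in 6 of 8 cases, with a summed level of 1614 to 2689 CPM in knockout and 463 to 1345 CPM in control; among them Aqp3 rose (log2 fold change 1.57) while Aqp2 had 1.25 with an edgeR adjusted p of 0.0666. Intercalated cell genes such as Slc4a1 and Slc26a4 rose in 6 of 6 cases (352 to 463 CPM in knockout and 140.4 to 202 CPM in control). Loop of Henle genes, Slc12a1 and Umod among them, rose in 4 of 6 cases (6277 to 7309 CPM in knockout and 2208 to 3792 CPM in control), and distal convoluted tubule genes in 3 of 4, Slc12a3 included (766 to 1182 CPM in knockout and 239.8 to 459 CPM in control).

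Podocyte genes, Nphs1 included, rose in 4 of 5 cases (511 to 560 CPM in knockout and 336 to 431 CPM in control), endothelial genes, Kdr included, in 2 of 5 (259.8 to 321 and 124 to 262 CPM, in the same order) and proximal tubule genes, Lrp2 included, in 2 of 8 (5735 to 7733 and 2472 to 7135 CPM). Injured tubule genes fell in 5 of 6 cases, Havcr1 and Lcn2 included (752 to 976 CPM in knockout and 3071 to 5427 CPM in control), and immediate early genes, Fos included, in 6 of 7 (169 to 191 and 340.4 to 543 CPM). Stromal genes gave 0 calls of 6 tested in edgeR and 1 in DESeq2, with 2 at an unadjusted p under 0.05, and their sums overlapped (453 to 657 CPM in knockout and 229 to 569 CPM in control), with Ren1 at 0 throughout. Myeloid genes gave 1 call of 7 in edgeR, a fall of Itgam, a share of 14.3% against 12.7% of all tested genes. DESeq2 called 1 higher and 2 lower, and 3 had an unadjusted p under 0.05. Their sums were 171 to 300.5 CPM in knockout and 167 to 271 CPM in control. Urothelial genes gave 0 calls of 7 in edgeR and in DESeq2, with 0 at an unadjusted p under 0.05, and sums of 30.8 to 118 CPM in knockout and 25.3 to 113 CPM in control. Sums for adrenal, neural and skeletal muscle genes stayed under 5 CPM, with Cyp11b1, Th, Dbh, Ckm and Myh4 at 0. Without control 1 and knockout 3, the principal, intercalated, loop and injured tubule counts were 6, 6, 4 and 5, while the distal convoluted tubule count was 2, the endothelial count 0 and the podocyte count 2. The part of any of these cell types in the HoxD values was not tested.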

How the data were processed

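The data are RNA-seq libraries of total kidney RNA, 4 knockout and 4 control, grouped by their titles. The authors deposited 1 table of whole-number read counts per gene, with no normalization, and a gene length for each gene. Per the submitters' processing notes the tools were HISAT2 2.2.1, Salmon 1.10.2, Trim Galore 0.6.2 and FastQC, with mm39 as the genome build; which tool made the counts and with which annotation is not given in the sources used here. Values from 1 to 20 were even in 68.7% to 70.9% of cases per library, against 49.5% to 50.4% above 100, a pattern that arises if the 2 mates of each pair are counted singly, so halved counts were tried as well. Genes were taken by symbol, and the identifier column was not used.

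From the deposited counts, edgeR 4.0.16 in R 4.3.3 was run with filterByExpr (minimum count 10), TMM scaling and the quasi-likelihood test of knockout over control, with Benjamini-Hochberg adjustment over all 15000 genes tested and a threshold of 0.05. Standard errors come from the F statistic, and 95% intervals from the fit's total degrees of freedom. CPM is TMM-scaled, and RPKM divides it by the deposited length in kilobases. The depth of 29044405 to 35530421 counts per library sets a floor of 3 counts, and floors cover counting error only, since these reads carry no molecular identifiers. The floors take counts as independent, which would not hold if mates were counted singly. Alternatives were DESeq2 1.42.0, limma 3.58.1 voom with sample weights, other scalings and filters, a replicate block, a length and GC correction, and leaving out libraries. The fits were also run on counts simulated from edgeR's own fit, which does not check how well that fit describes these data. Promoter sequences are those of RefSeq on GRCm38.p6, matched by symbol; exon overlaps come from GENCODE M21 on the same assembly.

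All 39 Hox genes enter the counts, sums and medians; a few genes, 1 of them a Hox gene, are not reported here by name or drawn in the figures. Full statistics are given for called members, for the 3 most abundant per cluster and for those beside the threshold; of the other lists up to 4 genes by smallest p are named, and of the cell type lists the first 2 members, with genes at 0 named besides. Genes outside this rule (Hoxb2, Hoxb5, Hoxc5, Hoxc9, Hoxc11, Hoxd11, Itgam, the neighbours) were named after their values were seen. The members and all lists were chosen with earlier results of these data known.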

Additional observations from a re-analysis of the deposited data

Results flagged for a closer look

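In 2 of the 62 sets of 4 libraries examined, 1 library lay far from the other 3, measured by its gap over the whole range; chance alone gives about 1 in 20. Hoxd9 stood at 119.5 CPM in knockout 1, against 88.4 to 92.6 CPM in the other knockout libraries, and without knockout 1 its log2 fold change was 0.82 (edgeR adjusted p = 0.0193). Hoxc4 stood at 2.48 CPM in knockout 1, against 4.06 to 4.20 CPM in the other knockout libraries, and without knockout 1 its log2 fold change was -0.06 (edgeR adjusted p = 0.884), against -0.21 with all libraries.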

How the results depend on the processing

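Hoxd8, Hoxd9 and Hoxd10 were called higher under all 18 alternative fits, with log2 fold changes of 0.87 to 1.12, 0.81 to 1.09 and 0.86 to 1.06. Same-numbered libraries correlated at -0.20, 0.04, 0.15 and -0.16 in their deviations from the group means. Libraries with different numbers ran from -0.33 to 0.35. The values show no sign of pairing by number, but with 4 libraries per group they cannot exclude it. Under a replicate block 865 genes were called in all, and Hoxd8 (adjusted p = 0.0277) and Hoxd9 (0.0437) had their largest adjusted p; Hoxd3 was not called (0.102). Hoxd3 was called in 9 of the 18, and Hoxd4 in 3: DESeq2 (0.0260), voom (0.0216) and without knockout 1 (0.0421).

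DESeq2 called 2997 genes in all, 5 retinoic acid genes, 3 development partners, 2 noncoding genes, 2 cofactors and 2 chromatin regulators. Voom called 3 Hox genes lower (Hoxb7, Hoxb8 and Hoxb2), 1 cofactor, 2 chromatin regulators and 3 development partners. The length and GC correction also called 3 Hox genes lower, 2 chromatin regulators and 2 development partners, and split all calls into 1045 higher and 1651 lower, against 967 and 942. DESeq2 size factors, no filter, a minimum count of 30 and halved counts each gave 2 development partners. The block gave 0 noncoding genes. Without control 1 and knockout 3 there were 1045 genes called in all and 0 development partners.

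With 1 library left out, the counts ran from 907 (without knockout 4) to 1984 in all, 3 to 4 Hox genes higher, 0 to 3 lower, 0 to 1 chromatin regulators, 0 to 1 noncoding genes, 0 cofactors, 1 to 3 development partners and 1 to 4 retinoic acid genes. The HoxD share difference of 13.6 percentage points ran from 12.9 to 14.4, and the Hox median from 0.00 to 0.15. The cause of these shifts was not tested.

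No called gene changed direction. Uncalled genes near 0 did. With 1 library left out the log2 fold changes ran from -0.148 to 0.0175 (Hoxa10), -0.0349 to 0.506 (Hoxa11), -0.0455 to 0.0876 (Hoxa3), -0.0562 to 0.162 (Hoxa4), -0.0672 to 0.155 (Hoxa5), -0.00661 to 0.0883 (Hoxa9), -0.137 to 0.0533 (Hoxb5), -0.131 to 0.0674 (Hoxb9), -0.191 to 0.0532 (Hoxc10) and -0.666 to 0.245 (Hoxc11). Without control 1 and knockout 3 they were -0.0494 (Hoxa3), -0.0540 (Hoxa4), 0.0536 (Hoxb5), 0.147 (Hoxb9), -0.209 (Hoxc10) and -0.717 (Hoxc11), with voom -0.0547 (Hoxa5) and 0.0931 (Hoxb9), and with the length and GC correction -0.0261 (Hoxa3) and -0.0105 (Hoxa9). Depth limits Hoxb1, Hoxd1 and Hoxd12, whose counts were too few to be tested.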
